A study of Mus musculus with 66 samples.

Results

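The 27 recombinant inbred BXD strains of this array series were divided by their level of Hspa13 in medial prefrontal cortex. The strains were selected on the Hspa13 probe set (a group of short probes that together read a stretch of transcript) with the highest mean over all 66 arrays, 1453172_at. The saline and the ethanol array of each strain were averaged, and the strain was placed with the progenitor whose mean was nearer. This gave 13 strains at the level of C57BL/6J, called C57-like here, and 14 at the level of DBA/2J, called DBA-like. Together they hold 54 of the 66 arrays, 26 from C57-like and 28 from DBA-like strains. The other 12 arrays come from the progenitors themselves, 6 from each strain.

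All mice were males aged 10 to 12 weeks, and every array carried RNA pooled from 4 to 5 animals. An intraperitoneal dose of saline or of 1.8 g/kg ethanol was followed by 15 minutes of restraint and 10 minutes in a light-dark box, and tissue was taken 4 hours after the injection, so restraint and the light-dark box are shared by all groups. Each BXD strain had 1 saline and 1 ethanol array, and each progenitor had 3 arrays per treatment. Levels are log2 values, on which a difference of 1 is a doubling. The deposited arrays were alike in centre and width: their medians ran from 5.67 to 5.77 and their standard deviations (SD) from 2.06 to 2.17. Marker genes are given beside the tissue label as a description. In the C57-like and DBA-like strains alike, the mean level was 10.43 for Slc17a7, the vesicular glutamate transporter of cortical excitatory neurons. The 13 measured excitatory neuron markers had means from 6.10 to 11.93 in C57-like strains. The striatal receptor gene Drd2 was low in both groups, at 5.41 and 5.44. It does not stand for its list: the 10 measured striatal markers had means from 5.41 to 9.82 in C57-like strains. Slc17a7 and Drd2 were chosen after their values were seen, so they cannot check the label.

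Hspa13 encodes a member of the HSP70 chaperone family that is associated with the endoplasmic reticulum and carries the ATPase part of the family without its usual substrate-binding part. BXD strains descend from crosses of C57BL/6J and DBA/2J, and inbreeding has fixed in each strain a mosaic of chromosome blocks from one or the other progenitor. Genes that lie close together on a chromosome therefore tend to come from the same progenitor, while genes far apart or on other chromosomes are inherited largely independently.

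The values that chose the groups fell into separate ranges. On probe set 1453172_at the C57-like strains had levels of 7.62 at the lowest, 7.85 at the median and 8.06 at the highest. The DBA-like strains had 9.78, 9.89 and 10.06. No strain lay between the ranges. The progenitor arrays had means of 7.83 (SD 0.22, n = 6, range 7.56 to 8.21) in C57BL/6J and 9.94 (SD 0.06, n = 6, range 9.87 to 10.04) in DBA/2J, with a midpoint of 8.88. Nearest to the midpoint were BXD01 at 8.06 on the lower side, and BXD38 and BXD19, both at 9.78, on the upper side. The difference between the group means was 2.05, a 4.14-fold higher level in DBA-like strains. Using only the saline arrays or only the ethanol arrays placed all 27 strains in the same group. As the groups were made from these values, they are a description and were not tested.

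The platform reads Hspa13 with 4 probe sets, and these did not behave alike. Probe set 1430026_at was also higher in DBA-like strains, with a range of 7.71 to 8.13 against 6.57 to 6.90, a difference of 1.18. Probe set 1429502_at ran the other way: DBA-like strains lay between 5.53 and 5.85 and C57-like strains between 6.34 and 6.90, a difference of -0.93. On 1433772_at the groups overlapped, with medians of 8.17 in DBA-like and 8.23 in C57-like strains. The progenitors showed the same pattern, with differences of DBA/2J minus C57BL/6J of 1.23, -1.09 and -0.19 on these 3 probe sets. For 1430026_at and 1429502_at the nearer progenitor was the one given by 1453172_at in 27 of 27 strains, and for 1433772_at in 13 of 27. Thus 3 of the 4 probe sets divided the strains in the same way, and the direction of the difference depended on the probe set. Whether the probe sets differ through transcript level, transcript form or hybridisation was not tested, since probe sequences were not used here.

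**Figure D1:**
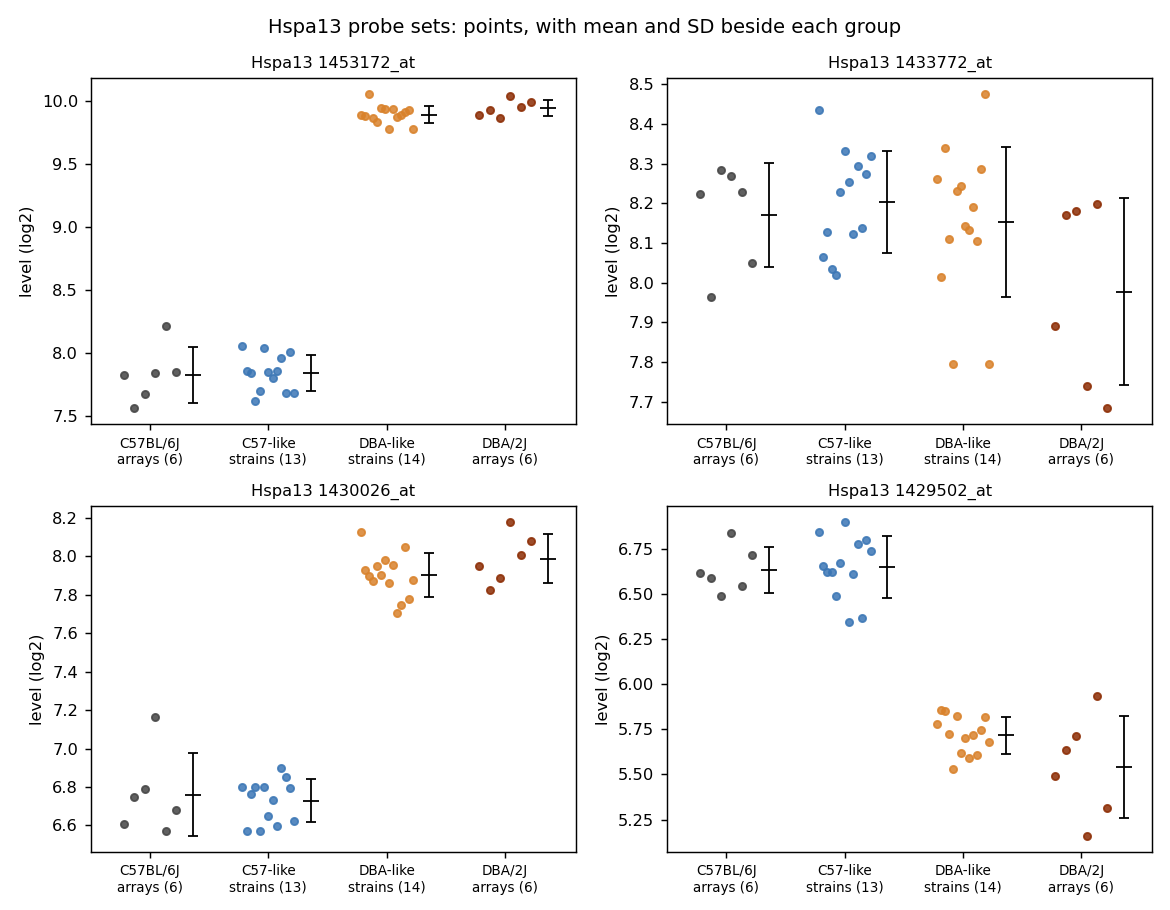
Level (log2) of the 4 Hspa13 probe sets in the 6 C57BL/6J arrays, the means of the 13 C57-like and 14 DBA-like BXD strains, and the 6 DBA/2J arrays; the black mark beside each group is the mean with its SD. Strain groups do not overlap on 1453172_at, 1430026_at and 1429502_at, the last with the opposite direction, and overlap on 1433772_at.

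The comparison of all other genes between the 14 DBA-like and 13 C57-like strains asked which transcripts go with the grouping probe set of Hspa13. As the Hspa13 probe sets differed in direction, DBA-like strains are not shown to have a higher or lower Hspa13 transcript level. No gene passed when each gene was represented by its brightest probe set: 0 of 13195 genes (0%) had a Benjamini-Hochberg adjusted p below 0.05 with limma, and 0 did so with a Wilcoxon rank-sum test. At an unadjusted p below 0.05 there were 1039 genes with limma, or 7.87%, and 1067 with the rank-sum test. Of the 1039, 328 (2.49% of the genes tested) were higher and 711 (5.39%) were lower in DBA-like strains. The smallest p belonged to Usp25, 2 places after Hspa13 in the gene order of chromosome 16. In no gene did the ranges of the 2 groups stay apart.

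The balance of higher and lower levels depended on how arrays were scaled: of the 1039, 31.6% were higher in DBA-like strains, while the share among genes at this p was 22% after median centring and 52.5% after a repeated quantile normalization. The saline arrays gave 1876 such genes and the ethanol arrays 403. Leaving out single strains moved the number from 1039 both ways, to 758 without BXD01 at the lowest and 1672 without BXD34 at the highest. On saline arrays the SD of an array averaged 2.131 (SD 0.021, n = 13) in C57-like and 2.107 (SD 0.028, n = 14) in DBA-like strains. On ethanol arrays it averaged 2.119 and 2.117. Whether these widths bear on the counts was not tested. The first principal component of the strain means, which held 16.6% of the variance, averaged 1.97 (SD 5.53, n = 13, range -8.78 to 8.52) in C57-like and -1.83 (SD 8.33, n = 14, range -18.5 to 14.3) in DBA-like strains. The ranges overlapped, and neither this difference nor its part in the counts was tested. Replicates here are strains, so p-values measure the spread between strains together with that between pools of animals.

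The first measured genes after Hspa13 on chromosome 16 are Nrip1, a corepressor of nuclear receptors, and Usp25, a deubiquitinating enzyme. Gene order was taken from RefSeq (assembly GRCm38.p6), and a place counts measured genes only. Genes read only below the filter, such as Samsn1 of chromosome 16, have no place in this order. When every probe set was tested by itself, 3 of 23195 (0.0129%) passed, and all 3 belonged to genes within 5 places after Hspa13: 1 each of Nrip1, Usp25 and D16Ertd472e. These 3 probe sets were named after their values were seen.

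Nrip1 probe set 1418469_at separated the groups completely. Its level was 7.04 at the lowest, 7.31 at the median and 7.65 at the highest in C57-like strains, and 6.20, 6.59 and 6.85 in DBA-like strains. The difference of -0.78, a 1.72-fold lower level in DBA-like strains, had a limma adjusted p of 2.83e-09 over all probe sets. No other probe set of a gene other than Hspa13 kept the groups apart (1 of 23195, 0.00431%). The progenitors differed in the same direction, at 7.35 (SD 0.26, n = 6) in C57BL/6J and 6.64 (SD 0.12, n = 6) in DBA/2J, and at this probe set 27 of 27 strains lay nearer the progenitor given by Hspa13. The other Nrip1 probe sets overlapped between the groups. Probe set 1449089_at differed in the same direction by -0.24 (limma adjusted p = 0.0519 over all probe sets) and placed 21 of 27 strains as Hspa13 did. The brightest, 1434384_at, differed by -0.14 (adjusted p = 0.481), and among the 6 Nrip1 probe sets that were tested, 2 had a positive difference, 0.12 for 1454295_at and 0.02 for 1432603_at. As for Hspa13, the result is one of a probe set and not of all readings of the gene.

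Usp25, read by its brightest probe set 1448939_at, lay nearer the progenitor given by Hspa13 in 25 of 27 strains. Its C57-like levels were 5.63, 5.97 and 6.76 (lowest, median, highest) and its DBA-like levels 5.70, 6.59 and 6.79, so the groups overlapped. The overlap came from BXD05, which was C57-like for Hspa13 and had the highest Usp25 level of its group, and from BXD14, which was DBA-like and had the lowest. The difference was 0.55 (standard error, SE, 0.10), with adjusted p = 0.0737 in the comparison of genes and 0.0477 in that of all probe sets. Over 13 other settings, those that leave out strains not counted, limma's or the rank-sum test's adjusted p for Usp25 ranged from 0.000116 to 0.608 and passed in 4. In the progenitors the difference was 0.47 (limma adjusted p = 0.0179). The second Usp25 probe set above the filter, 1445861_at, differed by 0.17 (adjusted p = 0.481 over all probe sets) and placed 19 of 27 strains as Hspa13 did.

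D16Ertd472e, 5 places after Hspa13, was read by 4 probe sets above the filter. All were higher in DBA-like strains, by 0.19 to 0.43. The passing probe set, 1429897_a_at, had levels of 5.43, 5.73 and 6.11 in C57-like strains and 5.94, 6.14 and 6.44 in DBA-like strains, with a difference of 0.43 and a limma adjusted p of 0.00149 over all probe sets. BXD05, BXD14 and BXD38 lay nearer the other progenitor. On this probe set BXD05 and BXD14, which part from Hspa13 at Usp25 1448939_at, thus still part from it 3 places farther on. BXD14 also did so on the other D16Ertd472e probe sets above the filter. BXD05 did so on 1451466_at but not on 1436125_at or 1424724_a_at.

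The remaining neighbours showed smaller differences. Of the 8 measured genes after Hspa13, Mir99ahg, the host transcript of a microRNA cluster, differed by -0.11 (SE 0.04), Cxadr, an adhesion molecule and virus receptor, by 0.07 (SE 0.07), and Ncam2, a neural adhesion molecule, by 0.01 (SE 0.07), and the last changed sign under median centring. None passed. On the other side, the 8 genes before Hspa13 ran from Epha3, an ephrin receptor, to Robo1, a receptor of axon guidance, and their differences lay between -0.06 and 0.15. They include the serotonin receptor gene Htr1f at 0.02 (SE 0.05) and Chmp2b, a component of endosomal sorting, at -0.02 (SE 0.03). Among the 10 genes on each side, an unadjusted p below 0.05 was found for 4 of 10 after Hspa13 (Nrip1, Usp25, Mir99ahg and D16Ertd472e) and 0 of 10 before it.

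**Figure D2:**
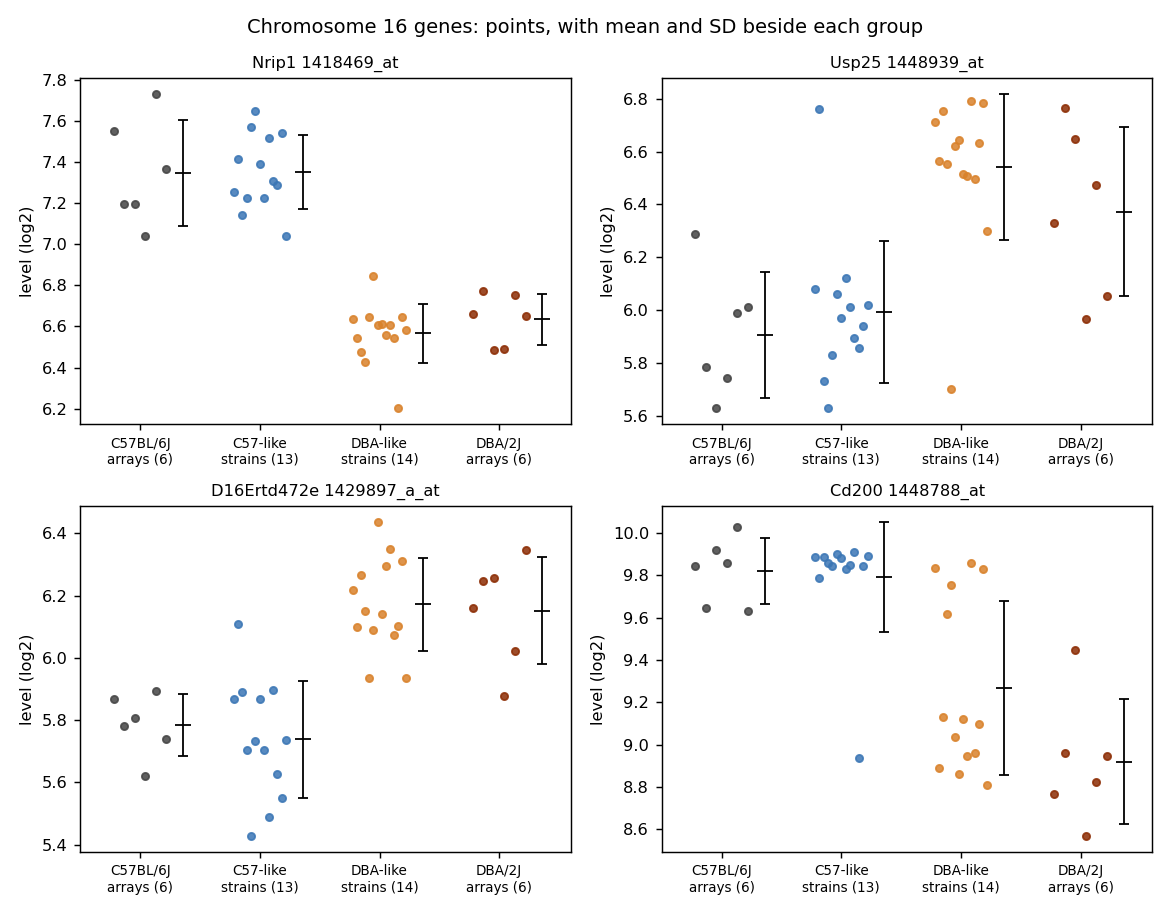
Level (log2) of 4 probe sets of chromosome 16 genes in the progenitor arrays (6 each) and the means of the 13 C57-like and 14 DBA-like strains, with mean and SD beside each group. Nrip1 1418469_at separates the groups, Usp25 and D16Ertd472e have 2 and 3 strains on the side of the other progenitor, and Cd200 has 6.

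Farther along chromosome 16, with both sides of Hspa13 pooled, the share of genes with an unadjusted p below 0.05 was 20% (4 of 20) within 10 places, 20% (6 of 30) from 11 to 25, 20% (10 of 50) from 26 to 50, 20% (17 of 85) from 51 to 100, and 10.8% (25 of 231) beyond, against 7.87% of all genes. By side, before Hspa13 it was 0 of 10, then 5 of 15, 6 of 25 and 13 of 50, and after it 4 of 10, then 1 of 15, 4 of 25 and 4 of 35, and all genes beyond 100 places lay before it. On the whole chromosome it was 62 of 416 genes, or 14.9%. None of these passed the adjusted threshold.

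Some differences of a size near that of Usp25 lay well before Hspa13, and the genes named in this paragraph were chosen after their values were seen. The largest on this side belonged to Pdxdc1, 262 places before, at 0.64 with an SE of 0.62. Cd200, a neuronal surface protein that restrains microglia, was 49 places before Hspa13 and differed by -0.53 (SE 0.12; limma adjusted p = 0.405). Slc35a5, of the nucleotide-sugar transporter family and 51 places before, differed by -0.41 (SE 0.09; adjusted p = 0.263). Slc15a2, which encodes a peptide transporter and lies 85 places before, differed by 0.45 (SE 0.17; adjusted p = 0.587). Cd200 was at 9.86 at the median in C57-like strains and at 9.11 in DBA-like strains, yet the ranges overlapped over most of their width, 8.94 to 9.91 against 8.81 to 9.86. This came from 1 C57-like strain, BXD36, at the low level and 5 DBA-like strains, BXD02, BXD12, BXD14, BXD23 and BXD34, at the high level. Slc35a5 divided the strains in the same way, with the same 6 strains unlike their Hspa13 group. With all 54 arrays in 1 limma fit and strain as a random replicate block, 8 of 13195 genes passed (0.0606%), among them Cd200, Slc35a5, Usp25 and D16Ertd472e of chromosome 16. That fit gives all genes 1 correlation between the arrays of a strain, 0.184, so p-values are too small for genes whose level is more stable within a strain.

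How far the strains kept together along the chromosome was read from probe sets that differed between the progenitors by at least 0.5 with a limma adjusted p below 0.05, a choice made after seeing the data. On chromosome 16 there were 19, from 13 genes, Hspa13 included. Nrip1, the first measured gene after Hspa13, placed 27 of 27 strains as Hspa13 did. Slc35a5 and Cd200 placed 21, and Slc15a2 placed 19 with each of 2 probe sets, although those probe sets differ in opposite directions between the progenitors (1.37 and -2.22). The 8 strains unlike Hspa13 at Slc15a2 were also the 8 unlike it at Pigz, 129 places away, and 5 of them were among the 6 at Cd200. At the far end Pdxdc1, 262 places away, placed 16 and Clec16a, 283 places away, placed 14. The order was not strict: Abi3bp, 25 places before Hspa13, placed 19 strains and the probe sets of Epha3, 8 places before it, placed 17.

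**Figure D3:**
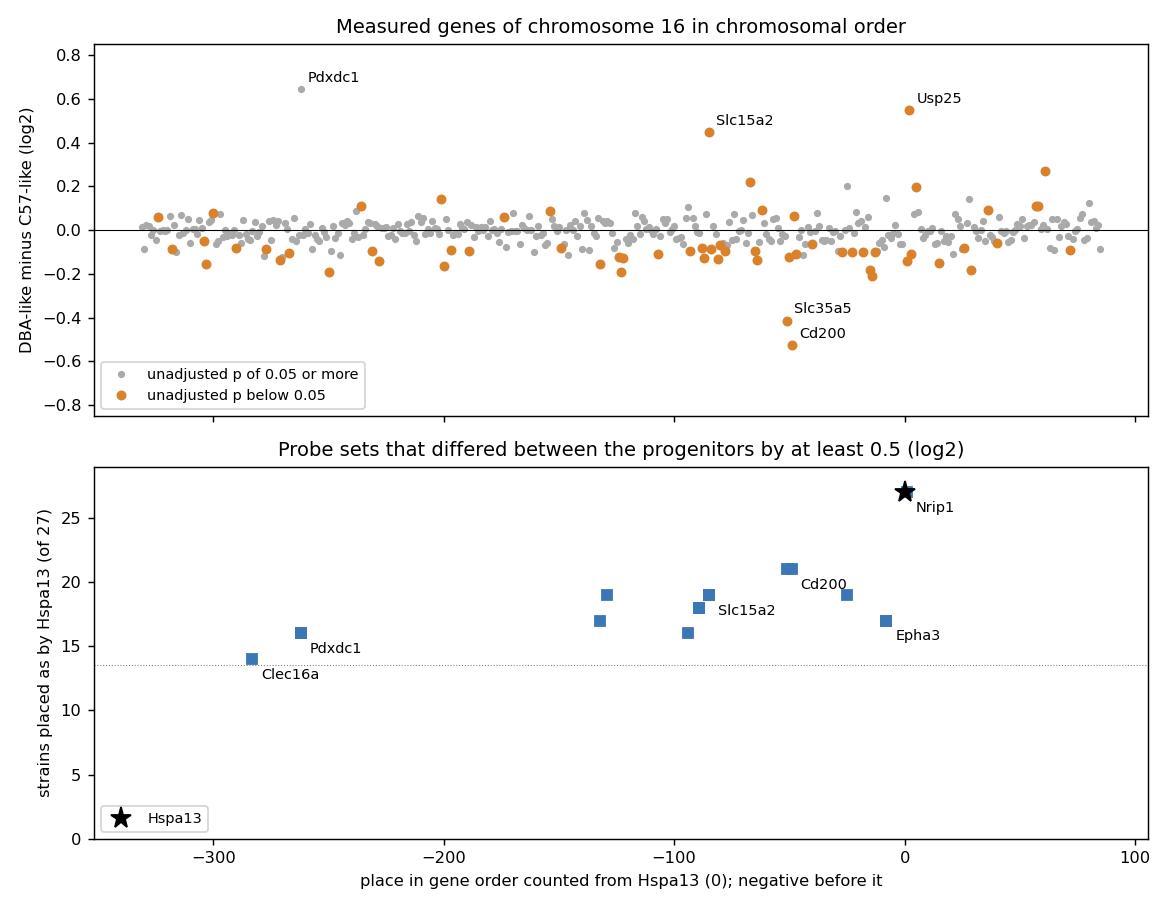
Top: difference of DBA-like minus C57-like strains (log2) for 416 measured genes of chromosome 16 against their place in gene order from Hspa13; orange points have an unadjusted p below 0.05. Bottom: number of the 27 strains that a probe set with a progenitor difference of at least 0.5 places with the same progenitor as Hspa13, from 14 at Clec16a to 27 at Nrip1; the dotted line divides the strains equally.

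The 12 progenitor arrays give the same genes a direction between DBA/2J and C57BL/6J, and their values did not enter the fit between strain groups. They did set the Hspa13 midpoint, and they count in the mean over 66 arrays that chose the Hspa13 probe set, the probe sets above the filter and the brightest probe set of each gene. Between the progenitors 2175 of 13196 genes (16.5%) passed with limma. On chromosome 16, 12 genes both passed there and had an unadjusted p below 0.05 between the strain groups, and 12 of 12 differed in the same direction. They include Igsf11, an adhesion molecule (0.22 between strain groups and 0.31 between progenitors), Cldnd1 (-0.21 and -0.47) and Cbr3, a carbonyl reductase 61 places after Hspa13 (0.27 and 0.37).

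Chromosome 17 gave the reverse. It held 81 of 630 genes (12.9%) with an unadjusted p below 0.05, of which 27 also passed between the progenitors, and 25 of these 27 had opposite signs in the comparisons. Glo1, the glyoxalase that clears methylglyoxal, differed by -0.58 (SE 0.15; limma adjusted p = 0.465), with the lower level in DBA-like strains, whereas DBA/2J was higher than C57BL/6J by 0.99. Its level in C57-like strains was 9.53, 10.59 and 10.95 (lowest, median, highest) and in DBA-like strains 9.46, 9.64 and 10.65. At Glo1, 12 of 13 C57-like strains had a Glo1 level nearer DBA/2J, and 9 of 14 DBA-like strains had one nearer C57BL/6J. Ptchd4 (-0.57 against 1.09), Nubp2, an iron-sulphur cluster assembly factor (-0.15 against 0.27), and Luc7l, a splicing factor (0.23 against -0.25), ran the same way, and zinc finger genes such as Zfp40 (0.51 against -1.06) and Zfp758 (0.45 against -1.21) did so too. The exceptions were Mog, a myelin protein, and Gm1976. None of these genes passed between strain groups over genes, while Glo1, Ptchd4, Nubp2 and Luc7l were the other 4 of the 8 that passed in the fit with strain as a random replicate block. On all other chromosomes, 896 of 12149 genes (7.38%) had an unadjusted p below 0.05, and of the 107 that also passed between the progenitors 74 had the same sign and 33 the opposite. Among these chromosomes, X had 49 of 412 genes (11.9%) at this p. Complete sharing of the sign was not particular to chromosome 16. Of the genes at this p that also passed between the progenitors, 11 of 11 on chromosome 3 and 4 of 4 on chromosome 14 had the same sign in both comparisons. On chromosome 4 it was 7 of 15. Neighbouring genes share chromosome blocks, so such counts are not of independent genes.

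**Figure D4:**
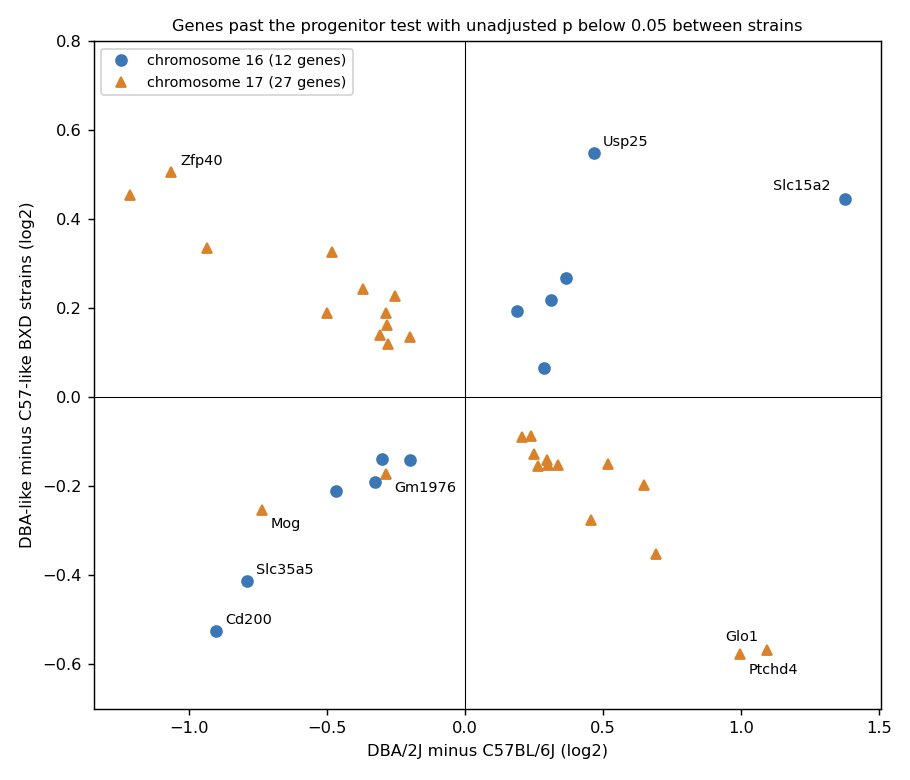
Difference of DBA-like minus C57-like strains against that of DBA/2J minus C57BL/6J (both log2) for genes that passed between the progenitors and had an unadjusted p below 0.05 between strain groups. The 12 genes of chromosome 16 share the sign of the progenitor difference, and 25 of 27 genes of chromosome 17 have the opposite sign.

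The genes whose levels correlated most with the grouping probe set of Hspa13 over the 27 strain means came from several chromosomes. Pearson's r was 0.74 for Usp25, 0.71 for D16Ertd472e, -0.69 for Cetn3, a centrin, 0.67 for Hmgxb4, -0.66 for Nubp2, 0.65 for Luc7l, -0.62 for Gp1bb, a platelet adhesion receptor subunit on chromosome 16, and -0.62 for Amacr, a racemase of branched-chain fatty acid breakdown. As the grouping probe set forms 2 separate levels, these values largely restate the difference between groups, and the same arrays underlie each pair. For Cetn3, C57-like strains lay between 9.10 and 9.38 and DBA-like strains between 8.86 and 9.22, a difference of -0.19 (SE 0.04; limma adjusted p = 0.173).

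Among the partners of Hspa13 in protein folding, no gene passed the threshold between the groups. Whether these partners follow the Hspa13 transcript level was not tested, as the Hspa13 probe sets differed in direction. Of 13 measured HSP70 and HSP110 chaperones, 0 had an unadjusted p below 0.05 and the median difference was 0.03, against -0.01 over all genes. Their differences ran from -0.12 to 0.15. The smallest p belonged to Hspa2, at -0.12 (SE 0.06, limma unadjusted p = 0.053). The endoplasmic reticulum chaperone Hspa5 differed by 0.03 (SE 0.07), the constitutive cytosolic Hspa8 by 0.04 (SE 0.03) and the mitochondrial Hspa9 by -0.00 (SE 0.04). Hspa5, Hspa8, Hspa9 and the ubiquilins named next were chosen after their values were seen. Ubqln1 and Ubqln2, ubiquilins that bridge chaperones and the proteasome, differed by -0.00 (SE 0.02) and -0.05 (SE 0.03). The list of exchange factors and adaptors that holds them had 0 of 17 genes at an unadjusted p below 0.05, and so did the 14 cytosolic heat shock proteins.

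J-domain co-chaperones, which stimulate the ATPase of HSP70 proteins, had 0 higher and 2 lower genes of 28 at an unadjusted p below 0.05, Dnajc2 (-0.12) and Dnajc7 (-0.06). Of 35 genes of endoplasmic reticulum folding and the unfolded protein response, 1 reached it, the membrane selenoprotein gene Selenos at -0.09 (SE 0.03), and of 23 genes of protein translocation 1 did, the signal peptidase subunit Sec11c at -0.16 (SE 0.04). Each of these shares lies below the 7.87% of all genes. Proteasome subunits had 0 higher and 4 lower of 34, among them Psma3 (-0.08, SE 0.03), with 29 of 34 differences below 0 and a median of -0.03. Under a repeated quantile normalization 22 of 34 were below 0, when 5797 of all 13195 genes were.

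Lists that concern ethanol, stress and transmission also held no gene past the adjusted threshold, and at an unadjusted p below 0.05 their shares lay on both sides of the 7.87% of all genes. GABA-A receptor subunits had 2 of 9 genes at an unadjusted p below 0.05, Gabra3 (-0.13, SE 0.04) and Gabra5 (-0.14, SE 0.05), and 0 of 20 glutamate receptor subunits did. Among 22 glucocorticoid-responsive genes 3 were lower, with the largest difference for Ddit4, an inhibitor of mTORC1, at -0.35 (SE 0.10; limma adjusted p = 0.502): 7.97 at the median in C57-like and 7.57 in DBA-like strains. Among 11 genes of ethanol and aldehyde metabolism 1 was lower, Adh5 at -0.09 (SE 0.03), and among 30 immediate early genes 1 was lower, Rgs2 at -0.16 (SE 0.06).

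Cell type markers also had no gene past the threshold; for comparison, the share at an unadjusted p below 0.05 was 7.87% over all genes, and 7306 of 13195 differences were negative. Myelin and oligodendrocyte markers had 2 of 15 at an unadjusted p below 0.05, Mog (-0.25, SE 0.11) and Mal (-0.18, SE 0.09), with 12 of 15 differences below 0 and a median of -0.09. Their mean level ranged from 7.70 to 8.39 over C57-like strains and from 7.71 to 8.14 over DBA-like strains. In whole tissue, fewer cells of a type and less RNA per cell cannot be told apart. Oligodendrocyte precursor markers had 1 of 8, Tmem100 at -0.26 (SE 0.11), excitatory neuron markers 2 of 13, Neurod6 (-0.16, SE 0.06) and Cux2 (-0.09, SE 0.04), and astrocyte markers 1 of 16, S100b at -0.14 (SE 0.06). Inhibitory neuron (14), microglia (14), endothelial (16), meningeal (12) and striatal (10) markers had 0. Choroid plexus markers had 1 of 4, Clic6 at 0.11 (SE 0.04).

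Other genes with large progenitor differences were spread over both groups. Kcnj9, a potassium channel subunit, differed by 0.07 (SE 0.40), Prune2 by -0.65 (SE 0.90), Pttg1, encoding securin, by -0.05 (SE 0.55), Rpgrip1 by -0.62 (SE 0.60) and Wwox by -0.21 (SE 0.41). Each had ranges in both groups that reached close to both progenitor levels, such as 7.84 to 10.34 in C57-like and 7.90 to 10.28 in DBA-like strains for Kcnj9. In the list of 18 such genes, 3 had an unadjusted p below 0.05: Glo1, Tmem87a at 1.02 (SE 0.43) and Etnppl at -0.82 (SE 0.31). The signs of Kcnj9, Pttg1 and Wwox changed in some settings.

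The ethanol response was compared between the groups as the difference of ethanol minus saline array in each strain. Npas4, a transcription factor induced by neuronal activity, rose in both groups. The immediate early transcription factors Fos and Egr2 rose past the threshold in the DBA-like strains. No gene's response differed between the groups past the threshold. Hspa13 itself, read by the grouping probe set, differed by 0.02 (SE 0.05) with ethanol in C57-like and by -0.01 (SE 0.05) in DBA-like strains.

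In C57-like strains 1 of 13196 genes (0.00758%) passed with limma, and in DBA-like strains 3 did (0.0227%), against 1259 (9.54%) and 619 (4.69%) at an unadjusted p below 0.05. In C57-like strains 210 (1.59%) of these were higher and 1049 (7.95%) lower after ethanol, and in DBA-like strains 251 (1.9%) and 368 (2.79%). The share higher was 16.7% in C57-like and 40.5% in DBA-like strains, and 13.9% and 65.3% after median centring. After a repeated quantile normalization it was 39.6% and 35.2%, so the contrast between the groups depended on scaling. Npas4 responded by -0.04, 0.71 and 1.55 (lowest, median, highest) in the C57-like strains, with a mean of 0.70 (SE 0.12, adjusted p = 0.0166) and a higher ethanol than saline level in 11 of 13. In the DBA-like strains the values were -0.28, 1.02 and 1.86, the mean 0.97 (SE 0.11, adjusted p = 1.01e-05), and 13 of 14 were higher. The response ranges overlapped, and the difference of 0.27 (SE 0.16) had an adjusted p of 0.634. The call of Npas4 in C57-like strains was lost with a trended and robust prior (adjusted p = 0.534) and without BXD05, BXD06, BXD18, BXD33 or BXD36; over the 8 planned settings its adjusted p ranged from 0.00621 to 0.534. In DBA-like strains it passed in every one of the same 8 settings and with each strain left out.

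Fos was higher after ethanol in 13 of 14 DBA-like strains, by a mean of 0.67 (SE 0.12; limma adjusted p = 0.0342), and in 8 of 13 C57-like strains, by 0.24 (SE 0.13; adjusted p = 0.554). Its mean levels were 8.41 after saline and 8.65 after ethanol in C57-like strains, and 8.05 and 8.72 in DBA-like strains, so the ethanol levels were closer together than the saline levels. Egr2 rose by 0.66 (SE 0.12; adjusted p = 0.0359) in DBA-like strains, in 12 of 14, and differed by 0.14 (SE 0.13; adjusted p = 0.719) in C57-like strains. Here too the saline means, 5.83 and 5.45, were farther apart than the ethanol means, 5.97 and 6.11. The call of Fos was lost under a repeated quantile normalization (adjusted p = 0.0527), and Egr2 is not among the genes tested with a 60th percentile filter. The calls of both were lost with a trended and robust prior, with no replicate block, with all probe sets tested, and without any of 10 and 11 single strains respectively. Arc, a synaptic effector gene, averaged 0.20 in C57-like and 0.69 in DBA-like strains (limma adjusted p = 0.688 and 0.305). Dusp1 averaged 0.17 (SE 0.09) in C57-like and 0.38 (SE 0.08) in DBA-like strains, and was higher after ethanol in 9 of 13 and 12 of 14. Fkbp5 averaged 0.18 (SE 0.07) and 0.14 (SE 0.07), higher in 11 of 13 and 8 of 14, so its response was not larger in DBA-like strains. Neither gene passed in either group.

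The difference of responses was 0.43 (SE 0.18) for Fos, 0.52 (SE 0.18) for Egr2 and 0.49 (SE 0.23) for Arc. Over all genes 0 of 13196 (0%) passed with limma and 1105 (8.37%) had an unadjusted p below 0.05, 703 (5.33%) with the higher response in DBA-like strains and 402 (3.05%) with the lower. The balance between the directions again depended on scaling, with 63.6% higher as deposited, 78.3% after median centring and 42.2% after a repeated quantile normalization. Among 30 immediate early genes, 10 had an unadjusted p below 0.05 and a higher response in DBA-like strains, and 0 a lower one. Besides Egr2, Fos and Arc these were the following, with the response in C57-like strains first. They were Junb (-0.04 and 0.43), Nptx2 (-0.49 and -0.03), Klf4 (-0.04 and 0.22), Per1 (-0.15 and 0.12), Jund (-0.11 and 0.07), Fosl2 (-0.23 and -0.00) and Egr4 (-0.04 and 0.12). A higher response was thus not always a rise: Nptx2 and Fosl2 had mean responses below 0 in both groups. Of the 30, 21 had a response above 0 in DBA-like and 14 in C57-like strains, with medians of 0.10 and -0.02. The smallest p over all genes belonged to Asb2, a subunit of a ubiquitin ligase, with responses of 0.17 in C57-like and -0.21 in DBA-like strains and an adjusted p of 0.171, and the next to Spint1 (0.06 and -0.19), Lrrc3, Krt5 and 0610030E20Rik.

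**Figure D5:**
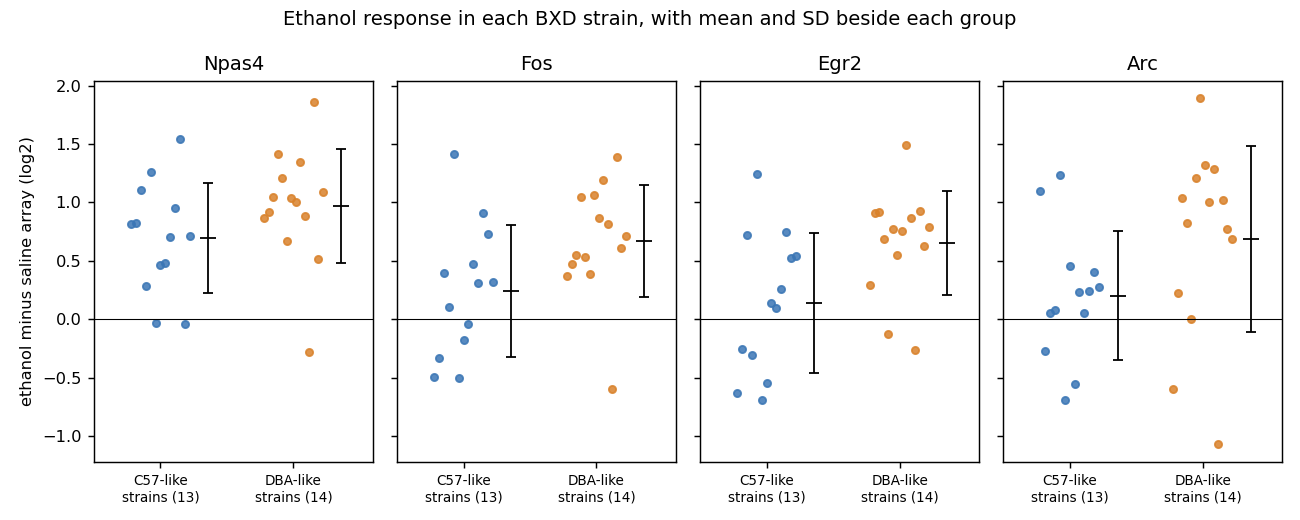
Ethanol minus saline level (log2) of Npas4, Fos, Egr2 and Arc in each of the 13 C57-like and 14 DBA-like strains, with mean and SD beside each group. Npas4 lies above 0 in 11 of 13 and 13 of 14 strains, Fos in 8 of 13 and 13 of 14, and the groups overlap for all 4 genes.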

How the data were processed

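The deposited table holds log2 levels for 45037 probe sets on 66 arrays, which the authors computed with RMA and the affy package per the submitters' processing notes. Versions of these tools were not stated in the sources used here. This procedure brings the arrays close to a common distribution, so levels are relative, but the deposited arrays still differed somewhat in median and SD. The number of arrays limits the precision. Batches, probe sequences and detection calls were not used here. The platform annotation gave 34945 probe sets 1 symbol, 932 several and 9160 none; 34741 symbols were matched by Entrez identifier to RefSeq (assembly GRCm38.p6), used for names and gene order. Probe sets below the 40th percentile of the mean (5.10) were removed, 18015 in all, and the brightest per gene was kept, giving 13196 genes, or 13195 without Hspa13. Probe sets with several or no symbols were left out of the gene tests.

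Differences were fitted with limma 3.58.1 (lmFit, eBayes, two-sided) in R 4.3.3 and the package data.table, version 1.17.8, on strain means or on strain differences of ethanol minus saline, and on 12 progenitor arrays with a treatment term. Tables used Python 3.11.15, pandas 2.3.3 and numpy 2.4.6. The fits were tested on simulated data. Strain pairs the BXD arrays: the own-strain correlation over 200 genes was 0.941 at the median (lowest 0.902), and in 27 of 27 strains the best match was the own strain. The highest correlation between 2 arrays was 0.998, and none was treated as a copy. Members and gene lists were chosen with earlier results of these data known. The genes named were drawn from the Hspa13 probe sets, the 8 measured genes on each side, the smallest p of each list and 6 ethanol-related genes. Further sets were the 5 smallest p of the response difference, 6 genes with large progenitor differences and the 8 genes most correlated with Hspa13. Not every member of these sets is named. Any other gene is said to be chosen after its values were seen or belongs to a count given with it. Alternatives changed the filter, scaling, prior, covariates, grouping and arrays.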

Additional observations from a re-analysis of the deposited data

Results flagged for a closer look

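Among the 36 groups of 6 progenitor arrays examined for a single array far from the rest, 1 stood apart. On Hspa13 probe set 1430026_at the first saline array of C57BL/6J had the highest level of its strain, 7.17, against a mean of 6.76 (SD 0.22, n = 6) over the 6 C57BL/6J arrays. Chance alone marks about 1 in 20 such groups. The array remained below every DBA/2J array on this probe set, the lowest of which was at 7.83.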

How the results depend on the processing

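Between strain groups, 2 genes passed with no filter on dim probe sets (Samsn1 of chromosome 16, whose mean level of 4.01 is dim, and Usp25), 3 probe sets when all were tested, 1 gene (Usp25) with the first principal component as covariate, and 8 with strain as a random replicate block over 54 arrays; the other 11 of 15 settings gave 0. Leaving out each strain in turn gave 0 to 4, with 2 genes without BXD05 (Usp25 and D16Ertd472e), 1 without BXD14 (Usp25) and 4 without BXD42 (Caskin1, Luc7l, Nubp2 and Usp25). For the difference of ethanol responses 2 genes passed with the first principal component as covariate, Asb2 and Mrap, and 0 elsewhere, each strain left out included. The response in C57-like strains gave 2 genes with a 60th percentile filter, with all probe sets or with median centring, 0 with a trended and robust prior, 4 with the first principal component, and 0 to 3 with a strain left out. In DBA-like strains it gave 2 with a 60th percentile filter (Fos and Npas4), 2 with a repeated quantile normalization (Egr2 and Npas4), 2 with all probe sets, 1 with a trended and robust prior, 1 with no replicate block over 54 arrays, and 1 to 5 with a strain left out.

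Between the progenitors 3308 of the probe sets passed when all were tested, 434 genes with the first principal component as covariate, 1162 on saline and 806 on ethanol arrays alone, and 1680 to 2466 with an array left out. Same-numbered progenitor arrays correlated between -0.393 and 0.262, above 0.1 in 3 of 18 pairs, so they share only a number; with that number as a replicate block 1872 genes passed.

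Grouping the strains by the next brightest Hspa13 probe set turned 22 named differences around, to 0.067 for Adarb2, 0.074 for Cd68, -0.012 for Cbr3, -0.0076 for Hmgxb4, 0.013 for Cldnd1, -0.14 for Cxadr and Ncam2, -0.058 for D16Ertd472e, 0.045 for Dnajc2, 0.0002 for Gabra3, 0.12 for Glo1, 0.033 for Gp1bb, -0.076 for Igsf11, -0.029 for Luc7l, -0.017 for Pecam1, -0.024 for Tbc1d24, 0.28 for Prune2, -0.068 for Ptgds, 0.30 for Pttg1, 0.0195 for Sil1, -0.41 for Slc15a2 and -0.19 for Usp25; that probe set makes other groups of strains. Ncam2 became -0.0019 with median centring and -0.061 on ethanol arrays, also with groups set on saline arrays. Kcnj9 became -0.045 on saline arrays, also with groups set on ethanol arrays. Pttg1 became 0.21 with the first principal component and 0.20 without the 4 strains nearest the midpoint, where Wwox became 0.26. Progenitor differences turned with the first principal component to 0.98 for Cd200, 0.76 for Cldnd1, -0.11 for Glo1, 0.032 for Luc7l, 0.38 for Nrip1, 1.18 for Slc35a5 and 0.50 for Tbc1d24. That component was computed from the same 12 progenitor arrays and can hold the strain difference itself. Its fit therefore cannot tell the direction between the progenitors. As deposited, the Cd200 arrays did not overlap, at 9.63 to 10.03 in C57BL/6J and 8.57 to 9.45 in DBA/2J. The cause of these changes was not tested. Fold sizes on dim probe sets are limited by signal over background, which no detection call measured here.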
